A study of Homo sapiens with 6 samples.

Results

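KCNQ1OT1 and its imprinted neighbours are 7 genes of the imprinted domain at the end of the short arm of chromosome 11: KCNQ1OT1, KCNQ1, CDKN1C, SLC22A18, PHLDA2, NAP1L4 and IGF2. They were taken by symbol from a table of 58735 rows, where they fill 8 rows, since IGF2 has 2. Counts were high enough for testing in 5 of the 8 rows, and KCNQ1 and both rows of IGF2 were too low. The genes were chosen with their values in the same comparison known, so their levels and fold changes are given as a description, without a p-value.

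The data are RNA-seq gene counts of the established line MDA-MB-231, grown from a human breast cancer of the triple-negative kind. Of the 6 libraries, 3 are labelled PM2.5, for cells exposed to fine airborne particulate matter, and 3 are labelled Control. The time given for all 6 libraries is 48 h. By its title the series is about fine particles and malignant progression of a breast cancer subtype. The sources used here do not state the particle dose, what the controls received or any batch, and say no more of the replicates than that they are biological, so p-values measure the spread between these libraries alone.

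Imprinted genes are transcribed mainly from the copy inherited from a given parent. KCNQ1OT1 is a long, mostly unspliced nuclear RNA that starts in an intron of the potassium channel gene KCNQ1 and runs against it. It is transcribed from the paternal copy, where it keeps neighbouring genes silent in cis, while on the maternal copy its start is methylated and CDKN1C, SLC22A18, PHLDA2 and, in early tissues, KCNQ1 are active. IGF2 belongs to the adjoining domain, which has an imprinting centre of its own, and NAP1L4 is transcribed from both copies in most human tissues. Gene counts hold no information on the parental copy, so the levels here are sums over all copies that the cells carry.

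Total counts ran from 32187965 to 34691009 in the libraries labelled PM2.5 and from 31846136 to 33495707 in those labelled Control. Levels are in CPM, a gene's share of its library's count total after scaling by TMM factors. Where a gene has 0 counts, its level may still reach 3 counts, or 0.0865 to 0.0942 CPM before TMM scaling. The TMM factors, from 0.9616 to 1.047, are left out of this limit, which covers counting error only. This limit and the Poisson intervals take each count as an independent fragment. The counts of some low genes, such as IGF2 and H19, are all even. Whether both reads of a pair were counted was not tested. In bulk RNA, fewer cells that express a gene and less of its RNA per cell cannot be told apart. Control replicate 3 stood apart on the second principal component, which held 15% of the variance, at a score of -36.94 against 16.48 and 14.83 in Control replicates 1 and 2. The 7 mesenchymal markers of the line, vimentin and CD44 among them, summed to 8790 to 9420 CPM in PM2.5 libraries and 6800 to 8010 CPM in Control libraries. Within this list 3 genes rose, and EGFR fell by 0.90 ± 0.10 on the log2 scale (SE, n = 3 each). Vimentin and CD44 were not called at an adjusted p under 0.05. The 8 luminal markers summed to 9.73 to 11.1 CPM in PM2.5 libraries and 9.88 to 12.4 CPM in Control libraries, with the oestrogen receptor gene ESR1 at 0 counts. GATA3, of the luminal list, fell by 0.53 ± 0.19, and no luminal marker rose. Of other cell types, 5 leukocyte markers summed to 2.62 to 3.87 CPM in PM2.5 libraries and 1.20 to 2.32 CPM in Control libraries, with PTPRC and CD3E at 0 counts and most of the sum in CD14, which rose by 0.80 ± 0.28 on the log2 scale (SE, n = 3 each). The 3 endothelial markers, mostly PECAM1, which rose by 0.33 ± 0.11, summed to 53.5 to 58.4 CPM in PM2.5 libraries and 38.9 to 50.8 CPM in Control libraries, with CDH5 at 4 counts in all. The 5 fibroblast markers, mostly COL1A1, summed to 27.4 to 31.1 CPM in PM2.5 libraries and 24.8 to 31 CPM in Control libraries, with DCN and LUM at 0. COL1A2, of the same list, rose, with 22, 16 and 18 counts in PM2.5 replicates 1 to 3, against 0, 0 and 2 counts in Control replicates 1 to 3. Of all tested genes it had the highest fitted log2 fold change (rank 1), a value that at such counts depends on the fit. These markers are named after their values were seen. Whether these marker levels have a part in the results was not tested. HMOX1 and CYP1A1, which particulate matter is known to induce, were both lower in the libraries labelled PM2.5. HMOX1 averaged 51.25 ± 6.004 CPM in PM2.5 libraries and 812 ± 58.1 CPM in Control libraries, and CYP1A1 averaged 2.73 ± 0.65 CPM in PM2.5 libraries and 6.28 ± 1.73 CPM in Control libraries (SD, n = 3 each). Every direction given here is therefore that of the labels. Whether the labels of the groups were exchanged was not tested, and if they were, each fold change given here would change its sign.

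The level of KCNQ1OT1 was 29.7, 48.3 and 28.1 CPM in PM2.5 replicates 1 to 3, against 7.77, 9.75 and 11.2 CPM in Control replicates 1 to 3. All libraries labelled PM2.5 lay above all those labelled Control, and PM2.5 replicate 2 lay well above the other libraries of its group. The gene averaged 35.4 ± 11.3 CPM in PM2.5 libraries and 9.57 ± 1.72 CPM in Control libraries (SD, n = 3 each), a 3.69-fold higher level with a log2 fold change of 1.88 ± 0.19 (SE). Leaving out each library in turn gave log2 fold changes from 1.59, without PM2.5 replicate 2, to 2.02, and without Control replicate 3 the value was 2.01. By log2 fold change the gene ranked 185 from the highest and 14791 from the lowest among 14975 tested genes, the second being its place from the top if the labels are exchanged. Among the 600 tested genes of the antisense class it ranked 8 by mean CPM, a measure not scaled by length.

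**Figure D1:**
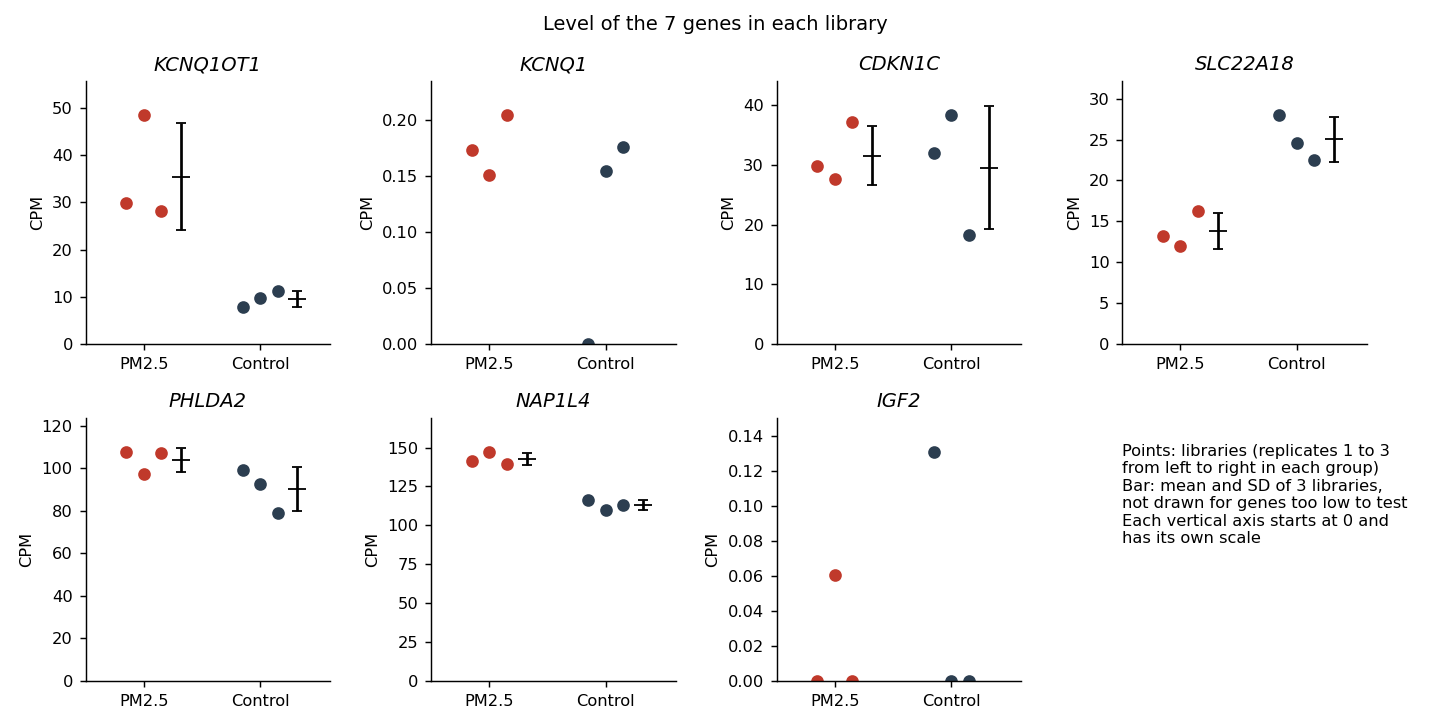
Level of the 7 genes in each library, in CPM on vertical axes that start at 0, with PM2.5 libraries in red and Control libraries in dark blue; bars give the mean and SD of 3 libraries and are left out for KCNQ1 and IGF2. KCNQ1OT1 and NAP1L4 are higher in every PM2.5 library than in any Control library, SLC22A18 is lower, CDKN1C and PHLDA2 overlap, and KCNQ1 and IGF2 stay at or under 0.204 and 0.131 CPM.

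KCNQ1OT1 (ENSG00000269821) is annotated on the minus strand of chromosome 11 at 2608328 to 2699994 (GRCh38) as a single exon of 91667 bases. That exon covers 22.7% of the 404427 bases of KCNQ1, which runs from 2444684 to 2849110 on the plus strand, and it touches 1 of the 22 exon blocks of KCNQ1, over 121 bases. No source used here states whether counting used strand, so reads of KCNQ1OT1 and intronic reads of unspliced KCNQ1 cannot be told apart. The exons of KCNQ1 itself held few reads. Per kilobase of exon, KCNQ1OT1 stood at 0.386 ± 0.123 RPKM in PM2.5 libraries and 0.104 ± 0.0188 RPKM in Control libraries, and KCNQ1 at 0.0395 ± 0.00602 RPKM in PM2.5 libraries and 0.0247 ± 0.0215 RPKM in Control libraries (SD, n = 3 each).

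Genes annotated within introns were counted in the same libraries. Of 99 tested genes annotated as sense-intronic, which lie inside an intron of a gene on the same strand, 24 rose and 0 fell (median log2 fold change 0.66), against 16.1% of all tested genes called higher and a median of -0.01. The class was looked at after the values of KCNQ1OT1 were seen, and 14 were called, all higher, without PM2.5 replicate 2 and also 14 without Control replicate 1. The summed level of the 99 genes was 140, 159 and 138 CPM in PM2.5 replicates 1 to 3, against 84.4, 95.1 and 92.7 CPM in Control replicates 1 to 3. PM2.5 replicate 2 was the highest library for this sum, as it was for KCNQ1OT1. Antisense genes with 1 exon block, the annotation class that holds KCNQ1OT1, counted 11 of 97 that rose and 13 that fell (median -0.06). Of 431 tested genes with 1 exon block, free of other exons and inside an intron of another gene, 55 rose and 24 fell (median 0.16). In each direction the shares of both classes lay under those of all tested genes, 16.1% higher and 15.8% lower. Over all 600 tested antisense genes 9.83% rose and 9.33% fell. These classes too were chosen after values were seen. Whether intronic reads in general have a part in the level of KCNQ1OT1 was not tested.

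**Figure D2:**
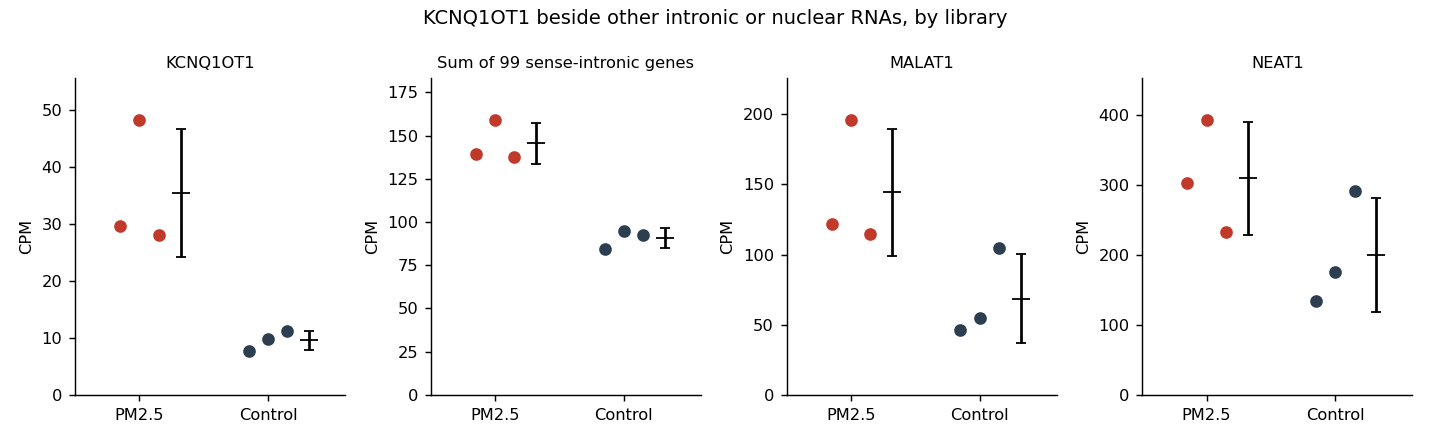
CPM by library of KCNQ1OT1, of the sum over 99 sense-intronic genes, and of the nuclear RNAs MALAT1 and NEAT1, on axes that start at 0, with PM2.5 libraries in red and Control libraries in dark blue; bars give the mean and SD of 3 libraries. In all 4 panels PM2.5 replicate 2 is the highest library, and Control replicate 3 lies nearest to the PM2.5 libraries for MALAT1 and among them for NEAT1.

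KCNQ1 encodes the pore-forming subunit of a voltage-gated potassium channel. It had 6, 5 and 7 counts in PM2.5 replicates 1 to 3, against 0, 5 and 6 counts in Control replicates 1 to 3. The sums, 18 in PM2.5 libraries (exact Poisson 95% interval 10.7 to 28.4) and 11 in Control libraries (5.49 to 19.7, counting error only), overlap in their intervals, and no difference was detectable at this depth. Exons of the opposite strand cover 4% of its exonic bases.

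CDKN1C encodes a CDK inhibitor that stops the cell cycle and is expressed from the maternal copy. This gene (ENSG00000129757, minus strand, 2883213 to 2885773) stood at 29.8, 27.7 and 37.1 CPM in PM2.5 replicates 1 to 3, against 32, 38.2 and 18.2 CPM in Control replicates 1 to 3. The groups overlap, and the lowest library was Control replicate 3, the one apart on the second component. The means were 31.5 ± 4.94 CPM in PM2.5 libraries and 29.5 ± 10.3 CPM in Control libraries (SD, n = 3 each), with a log2 fold change of 0.10 ± 0.20 (SE). Leaving out Control replicate 3 turned the log2 fold change of CDKN1C to -0.16, and leaving out PM2.5 replicate 3 turned it to -0.036.

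SLC22A18 encodes a membrane protein of the solute carriers and is also expressed from the maternal copy. It had 13.3, 12.1 and 16.3 CPM in PM2.5 replicates 1 to 3, against 28.0, 24.6 and 22.5 CPM in Control replicates 1 to 3. It was lower in each PM2.5 library than in any Control library, the reverse of KCNQ1OT1. The means were 13.9 ± 2.18 CPM in PM2.5 libraries and 25 ± 2.75 CPM in Control libraries (SD, n = 3 each), a 1.80-fold lower level with a log2 fold change of -0.85 ± 0.14 (SE), from -0.98 to -0.76 when each library was left out in turn. The gene (ENSG00000110628, plus strand, 2899721 to 2925246) shares 4.3% of its exonic bases with SLC22A18AS, a gene of the opposite strand. SLC22A18AS had 9, 9 and 6 counts in PM2.5 replicates 1 to 3 and 14, 10 and 27 in Control replicates 1 to 3.

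PHLDA2 encodes a small protein with a pleckstrin homology domain that restrains growth of the placenta, and it is maternally expressed. Its levels were 108, 97.4 and 107 CPM in PM2.5 replicates 1 to 3, against 98.98, 92.4 and 78.8 CPM in Control replicates 1 to 3. The groups overlap, since PM2.5 replicate 2 lies under Control replicate 1. The log2 fold change was 0.21 ± 0.10 (SE), between means of 104.0 ± 5.72 CPM in PM2.5 libraries and 90.05 ± 10.3 CPM in Control libraries (SD, n = 3 each). PHLDA2 (ENSG00000181649, minus strand, 2928273 to 2929455) and CDKN1C have no exonic base under an exon of another gene.

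NAP1L4 encodes a histone chaperone of the nucleosome assembly protein family. It was the most abundant of the 7 genes by CPM, at 142, 147 and 139.6 CPM in PM2.5 replicates 1 to 3, against 116, 110.0 and 113 CPM in Control replicates 1 to 3. The groups do not overlap and the libraries within each lie close together. The means were 143 ± 3.87 CPM in PM2.5 libraries and 113 ± 3.05 CPM in Control libraries (SD, n = 3 each), a 1.26-fold higher level with a log2 fold change of 0.34 ± 0.09 (SE). The gene (ENSG00000205531, minus strand, 2944431 to 2992377) shares 1.6% of its exonic bases with another gene.

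IGF2, the fetal growth factor that signals through the IGF1 receptor, was at the edge of detection. Its main row (ENSG00000167244, minus strand, 2129112 to 2149603) had 0, 2 and 0 counts in PM2.5 replicates 1 to 3, against 4, 0 and 0 counts in Control replicates 1 to 3. The second row (ENSG00000284779) had no count in any library. Both groups are at or near the limit of detection, and no fold change is given. Other exons cover 75% of the exonic bases of the first row and 90% of those of the second, and how reads that fit several genes were counted is not stated. The genes that share these exons were low too, with 8 counts over the 6 libraries for IGF2-AS and 0 for INS-IGF2.

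**Figure D3:**
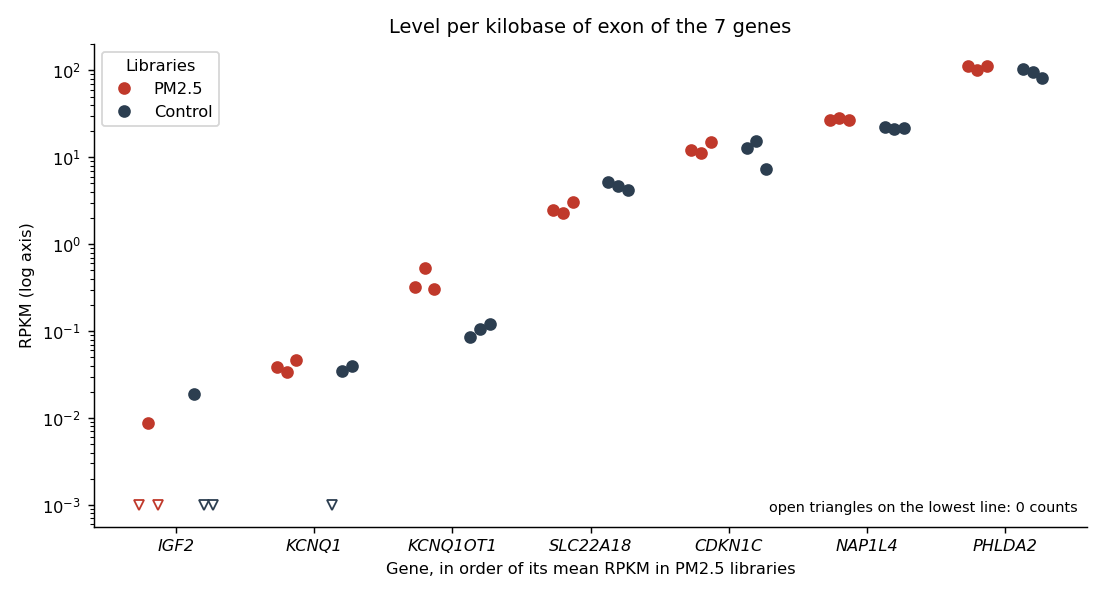
RPKM of the 7 genes in each library on a log axis, in order of the mean in PM2.5 libraries (red; Control libraries in dark blue); open triangles on the lowest line are libraries with 0 counts, and IGF2 is its main row. The order runs from IGF2, with counts in 1 library of each group, over KCNQ1OT1 at 0.386 RPKM to PHLDA2 at 109 RPKM in PM2.5 libraries.

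Per kilobase of exon the levels in PM2.5 libraries ran, from low to high, in the order IGF2, KCNQ1, KCNQ1OT1, SLC22A18, CDKN1C, NAP1L4 and PHLDA2. SLC22A18 averaged 2.61 ± 0.41 RPKM in PM2.5 libraries and 4.70 ± 0.517 RPKM in Control libraries. CDKN1C averaged 12.7 ± 1.99 RPKM in PM2.5 libraries and 11.9 ± 4.14 RPKM in Control libraries. Both lay well above KCNQ1OT1 and under the other pair. NAP1L4 averaged 27.45 ± 0.745 RPKM in PM2.5 libraries and 21.8 ± 0.586 RPKM in Control libraries, and PHLDA2 averaged 109 ± 5.99 RPKM in PM2.5 libraries and 94.3 ± 10.8 RPKM in Control libraries (SD, n = 3 each). Neighbours in this order were apart in every library of each group, other than IGF2 and KCNQ1 in Control libraries, whose values overlap.

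edgeR called 3 of the 5 tested genes, 2 higher (16.1% of all tested genes) and 1 lower (15.8%), where 31.9% of the 14975 tested genes were called at an adjusted p under 0.05 in either direction. Values of the PM2.5 and Control libraries stood wholly apart for 3 of the 5, and for 44.3% of all tested genes. Nothing is read from these counts, since the genes were chosen on this comparison.

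Sequence before the start of transcription was at hand for NAP1L4 and SLC22A18 among the 7 genes, and for CARS, the neighbour of NAP1L4 described further on. The stretches from 250 bases before to 50 bases after the start are shown 5′ to 3′ because NAP1L4 and CARS were higher and SLC22A18 was lower in the libraries labelled PM2.5. They are RefSeq sequences of GRCh38.p14, at chr11:2992280-2992579 on the minus strand for NAP1L4, at chr11:2902028-2902327 on the plus strand for SLC22A18 (SLC67A1 in RefSeq), and at chr11:3057374-3057673 on the minus strand for CARS (CARS1 in RefSeq). The table gives several starts for these genes, and the one nearest to the start of the gene in the deposited table is shown. The deposited starts of NAP1L4 and CARS, 2992377 and 3057613, lie within the stretches shown. That of SLC22A18, 2899721, lies outside and upstream, so its stretch belongs to another start of the gene. Capitals mark CCAAT on either strand, which reads ATTGG on the strand shown.
NAP1L4: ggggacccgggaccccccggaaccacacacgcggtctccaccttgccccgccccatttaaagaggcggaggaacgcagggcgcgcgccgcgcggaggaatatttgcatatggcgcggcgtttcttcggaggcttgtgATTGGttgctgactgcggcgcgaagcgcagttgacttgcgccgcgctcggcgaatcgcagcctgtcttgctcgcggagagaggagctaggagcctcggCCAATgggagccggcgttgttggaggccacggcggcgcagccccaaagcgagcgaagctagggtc
SLC22A18: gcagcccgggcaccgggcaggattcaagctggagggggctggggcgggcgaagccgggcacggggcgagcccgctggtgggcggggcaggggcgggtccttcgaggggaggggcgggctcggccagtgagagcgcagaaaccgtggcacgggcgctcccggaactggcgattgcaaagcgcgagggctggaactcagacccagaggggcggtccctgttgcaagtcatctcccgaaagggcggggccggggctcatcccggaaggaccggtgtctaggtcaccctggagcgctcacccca
CARS: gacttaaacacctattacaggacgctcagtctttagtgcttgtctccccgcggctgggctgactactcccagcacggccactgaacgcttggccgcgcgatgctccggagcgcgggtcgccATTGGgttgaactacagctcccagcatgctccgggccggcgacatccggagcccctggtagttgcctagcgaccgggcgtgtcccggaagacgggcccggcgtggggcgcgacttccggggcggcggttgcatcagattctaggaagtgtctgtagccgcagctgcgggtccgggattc
CCAAT, the core of the box bound by the factor NF-Y, occurs at 2 places in the NAP1L4 stretch and at 1 in that of CARS, and SLC22A18 has 0; of 34796 promoters of the same length 34.6% hold it. GGGCGG, the GC box, occurs 6 times in the SLC22A18 stretch and at 1 place in each of the other two, and 44.9% of promoters hold it. GCGTG, the core site of the aryl hydrocarbon receptor, occurs at 1 place for NAP1L4, at 2 for CARS and at 0 for SLC22A18 (36.4% of promoters), and TGACNNNGC, the core of the antioxidant response element, is in none of the 3 stretches (13.3% of promoters). Both strands were searched and no match overlapped one of another motif. G and C make up 72.3% of the SLC22A18 stretch, 67.0% of that of NAP1L4 and 65.3% of that of CARS. The median over all promoters was 58.7%. These are matches of letters in a short window, not sites shown to be used.

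Around KCNQ1OT1, 128 other rows of the table start within 1.5 Mb, and 25 of them could be tested. Of the 25, 4 rose and 2 fell in the libraries labelled PM2.5 (median log2 fold change -0.13), against 16.1% and 15.8% of all tested genes. CARS, the cysteine-tRNA synthetase gene on the far side of NAP1L4, rose by 0.56 ± 0.09 on the log2 scale (SE, n = 3 each, Benjamini-Hochberg adjusted p = 0.000186, edgeR quasi-likelihood fit) to 173 ± 5.32 CPM in PM2.5 libraries, against 117 ± 6.64 CPM in Control libraries. CARS-AS1, on the strand opposite to CARS and at 1.25 ± 0.510 CPM in PM2.5 libraries and 0.484 ± 0.130 CPM in Control libraries, rose by 1.36 ± 0.43, a call lost without PM2.5 replicate 2 or Control replicate 2. Exons of CARS cover 7.6% of the exonic bases of CARS-AS1, and without strand their reads cannot be told apart there.

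The other called genes of the window lie over 1 Mb away: the MAP kinase phosphatase gene DUSP8 rose by 1.08 ± 0.19 and RRM1, the large subunit of ribonucleotide reductase, by 0.49 ± 0.09, while TOLLIP, an adaptor of Toll-like receptor signalling, fell by 0.34 ± 0.09 and PGAP2, a GPI anchor remodelling gene, by 0.41 ± 0.12 on the log2 scale (SE, n = 3 each). The TOLLIP call was lost without PM2.5 replicate 1, and that of PGAP2 without PM2.5 replicate 1 or 2 or Control replicate 1 or 2. Without Control replicate 3 the window held 12 called genes, 4 higher and 8 lower. On the other side of the domain, between IGF2 and KCNQ1, the tetraspanin gene CD81 averaged 324 ± 42.1 CPM in PM2.5 libraries and 274 ± 28.1 CPM in Control libraries (SD, n = 3 each). TSSC4, beside it, averaged 44.8 ± 5.27 CPM in PM2.5 libraries and 53.96 ± 5.22 CPM in Control libraries. CD81 and TSSC4, chosen after their values were seen, were not called.

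**Figure D4:**
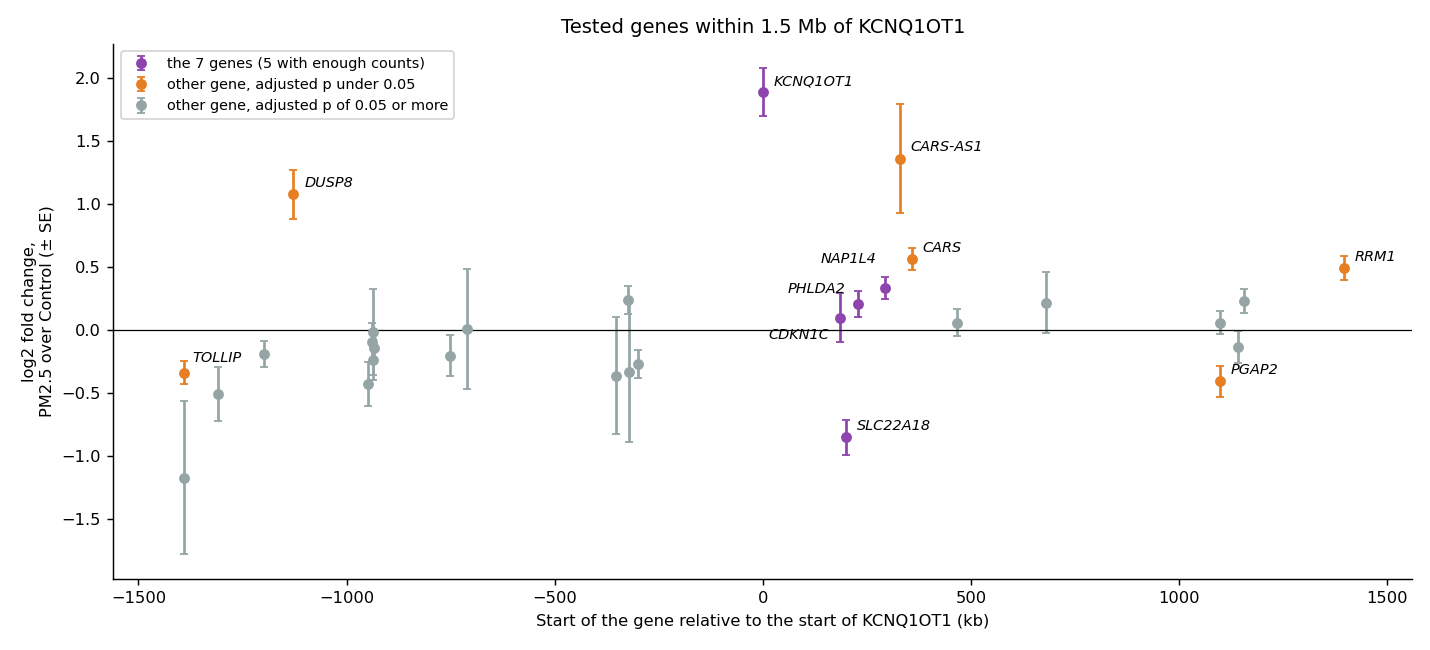
Log2 fold change (PM2.5 over Control, ± SE) of tested genes within 1.5 Mb of KCNQ1OT1, by the distance in kb from the start of KCNQ1OT1 to that of the gene; purple points are 5 of the 7 genes, orange points other genes with an adjusted p under 0.05 and grey points the rest. KCNQ1OT1 at 1.88 is the highest point, and the other purple points run from -0.85 for SLC22A18 to 0.34 for NAP1L4.

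Of 16 other genes of 11p15, the end of this chromosome arm, held to be imprinted, 5 could be tested. Of these, 2 rose and 0 fell (median 0.24). That is 40% higher and 0% lower, beside 16.1% and 15.8% of all tested genes. This list and those that follow were chosen with earlier results of these data known. Their shares and p-values are therefore a description, not an independent test. The 2 are CARS, which was described above, and the zinc finger gene ZNF215, which rose by 0.67 ± 0.21 on the log2 scale (SE, n = 3 each). Exons of the opposite strand cover 23.5% of the exonic bases of ZNF215. The ZNF215 call was lost without PM2.5 replicate 2 or Control replicate 1 or 2. H19, the maternally expressed RNA that shares its imprinting centre with IGF2, had 12 counts over the 6 libraries, and KCNQ1-AS1, another RNA antisense to KCNQ1, had 2. KCNQ1OT1 itself had 4538 counts. These counts are not scaled by exonic length, which is 91667 bases for KCNQ1OT1, 2897 for H19 and 1084 for KCNQ1-AS1. Other non-coding RNAs of imprinted clusters were near 0: MEG3 and HYMAI had 0 counts, PEG13 had 2, AIRN and MESTIT1 4 each and SNHG14 14. Their exonic lengths, from 3347 bases for HYMAI to 43324 for SNHG14, are all shorter than that of KCNQ1OT1. Genes named here for their low counts were chosen after these were seen.

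Among 52 imprinted genes of other regions 24 could be tested, of which 5 rose and 3 fell (median 0.25, beside -0.01 over all tested genes). These are 20.8% and 12.5% of the list, near the 16.1% and 15.8% over all tested genes. The growth factor receptor adaptor GRB10 rose to 168 ± 7.55 CPM in PM2.5 libraries, against 129 ± 1.95 CPM in Control libraries, a log2 fold change of 0.38 ± 0.09 (SE, n = 3 each, Benjamini-Hochberg adjusted p = 0.00377, edgeR quasi-likelihood fit). The phosphatase gene INPP5F rose by 0.56 ± 0.13, the retrotransposon-derived gene PEG10 by 0.52 ± 0.14 and the zinc finger gene ZNF331 by 0.58 ± 0.16, the last a call lost without PM2.5 replicate 1 or Control replicate 1. The largest fall in this list was that of the protease inhibitor TFPI2, to 1599 ± 67.2 CPM in PM2.5 libraries, against 2876 ± 147 CPM in Control libraries. NLRP2 and FAM50B fell by 0.51 ± 0.13 and 0.79 ± 0.21 on the log2 scale. Without Control replicate 3 this list held 13 called genes, 9 higher and 4 lower.

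Of 39 tested factors that write, read or keep imprints and silent chromatin, 11 rose and 5 fell in the libraries labelled PM2.5 (median 0.22). That is 28.2% higher and 12.8% lower, where all tested genes gave 16.1% and 15.8%. UHRF1, which brings the maintenance methyltransferase to replicating DNA, rose to 21.8 ± 2.29 CPM in PM2.5 libraries, against 8.34 ± 1.20 CPM in Control libraries (log2 fold change 1.38 ± 0.15, SE, n = 3 each, Benjamini-Hochberg adjusted p = 2.6e-06, edgeR quasi-likelihood fit). The Polycomb methyltransferase EZH2 rose by 1.34 ± 0.14, the de novo DNA methyltransferase DNMT3B by 1.07 ± 0.12 and the Polycomb subunit CBX2 by 0.95 ± 0.11. In the other direction, the Polycomb ubiquitin ligase subunit RING1 fell by 0.61 ± 0.09, EHMT2, a histone methyltransferase that Kcnq1ot1 recruits in mouse placenta, by 0.61 ± 0.10, the NF-Y subunit NFYC by 0.50 ± 0.12 and SETDB1, another histone methyltransferase, by 0.43 ± 0.13 on the log2 scale. The other NF-Y subunit genes of the list did not fall: NFYA rose by 0.37 ± 0.10, and NFYB, at 0.43 ± 0.16, was not called. The SETDB1 call was lost without PM2.5 replicate 1 or 3 or Control replicate 1, and with libraries scaled by total counts. Exons of the opposite strand cover 8.1% of the exonic bases of EHMT2 and 13.4% of those of SETDB1. HNRNPK, which binds Kcnq1ot1 in mouse cells, averaged 364 ± 7.43 CPM in PM2.5 libraries and 367 ± 2.82 CPM in Control libraries, and was not called. The insulator protein gene CTCF averaged 43 ± 1.34 CPM in PM2.5 libraries and 42.2 ± 4.15 CPM in Control libraries and was not called. ZFP57, which guards imprints in the embryo, had 2 counts over the 6 libraries. NFYA, NFYB, HNRNPK, CTCF and ZFP57 were chosen after their values were seen.

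Of 40 tested relatives and partners of the 7 genes, 15 rose and 8 fell (median 0.20), or 37.5% and 20% beside 16.1% and 15.8% of all tested genes, and without PM2.5 replicate 1 the numbers were 10 and 4. Beside CDKN1C, the CDK inhibitor CDKN1A fell to 765 ± 64.3 CPM in PM2.5 libraries, against 1291 ± 81.2 CPM in Control libraries (log2 fold change -0.76 ± 0.10, SE, n = 3 each, Benjamini-Hochberg adjusted p = 4.46e-05, edgeR quasi-likelihood fit). CDKN2D rose by 0.63 ± 0.12 and CDKN3, a phosphatase that acts on CDKs, by 1.74 ± 0.11, so 2 of 5 tested CDK inhibitor genes rose and 1 fell. CDKN2A and CDKN2B had no count. Both relatives of PHLDA2 in its family fell, PHLDA3 by 0.85 ± 0.10 and PHLDA1 by 0.41 ± 0.10 on the log2 scale. The PHLDA1 call was lost without PM2.5 replicate 1. Exons of other genes cover 19.1% of the exonic bases of PHLDA3 and 16.5% of those of PHLDA1.

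Although IGF2 itself was hardly detected, 19 genes of its receptors, binding proteins and regulators were tested, and 8 rose and 4 fell (median 0.28). That is 42.1% higher and 21.1% lower, beside 16.1% and 15.8% of all tested genes. The binding protein IGFBP3 rose to 191 ± 21.8 CPM in PM2.5 libraries, against 76.6 ± 2.85 CPM in Control libraries, and IGFBP4 to 1579 ± 211 CPM in PM2.5 libraries, against 764 ± 48.9 CPM in Control libraries (SD, n = 3 each). STC1, an inhibitor of the protease that frees IGF from its binding proteins, rose by 0.80 ± 0.11 and IGFBP7 by 0.69 ± 0.11, with 18.9% of the exonic bases of IGFBP7 under exons of the opposite strand. The adaptor IRS1 fell by 0.65 ± 0.12, IGFBP1 by 0.57 ± 0.14, the binding protein protease PAPPA by 0.45 ± 0.12 and HMGA2, an activator of IGF2 through PLAG1, by 0.35 ± 0.11 on the log2 scale. PLAG1, of the same list and chosen after its values were seen, rose by 0.64 ± 0.19. The PAPPA call, for a gene with 21.2% of its exonic bases under PAPPA-AS1, was lost without PM2.5 replicate 1, and that of HMGA2 without PM2.5 replicate 1 or 3 and with scaling by total counts. The receptor IGF2R, which clears IGF2, was at 190 ± 10.04 CPM in PM2.5 libraries and 183 ± 49.4 CPM in Control libraries and was not called. The receptor IGF1R rose by 0.28 ± 0.09 on the log2 scale. IGF2R and IGF1R were chosen after their values were seen.

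Among KCNQ and KCNE channel subunits and their partners 7 could be tested, and 4 rose and 0 fell (median 0.35). That is 57.1% higher and 0% lower, beside 16.1% and 15.8% of all tested genes. The calmodulin genes CALM2 and CALM3, whose product binds the channel, rose by 0.61 ± 0.10 and 0.35 ± 0.10, the anchoring protein AKAP9 by 0.67 ± 0.20 and the related channel KCNQ5 by 0.52 ± 0.18 on the log2 scale (SE, n = 3 each). Without PM2.5 replicate 1, where CALM3 and KCNQ5 were lost, or without Control replicate 1, where AKAP9 and KCNQ5 were lost, 2 of these were called, and without PM2.5 replicate 2 AKAP9 was lost. In the NAP1 family 1 of 7 tested genes rose and 1 fell (median -0.15), or 14.3% in each direction, near the shares over all tested genes. The histone chaperone NASP rose by 0.34 ± 0.12 and TSPYL1 fell by 0.30 ± 0.09 on the log2 scale. Both calls were lost without PM2.5 replicate 1 or 2 or Control replicate 1 or 2. That of NASP was also lost without PM2.5 replicate 3 and with scaling by total counts. Exons of the opposite strand cover 10.9% of the exonic bases of CALM3 and 17.7% of those of TSPYL1.

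Of 12 tested long non-coding RNAs that are nuclear or host other small RNAs, 5 rose (41.7%, beside 16.1% of all tested genes) and 0 fell (median 0.39). MALAT1, an abundant nuclear RNA, was at 122, 196 and 115 CPM in PM2.5 replicates 1 to 3, against 46.0, 54.6 and 105 CPM in Control replicates 1 to 3. Its log2 fold change was 1.08 ± 0.24 (SE, n = 3 each, Benjamini-Hochberg adjusted p = 0.00289, edgeR quasi-likelihood fit), and its call was lost with DESeq2. SNHG1, a host of small nucleolar RNAs, rose by 0.51 ± 0.11, LINC-PINT by 0.94 ± 0.23, with 29.6% of its exonic bases under other exons, and TUG1 by 0.44 ± 0.15, lost without PM2.5 replicate 1 or 2 or Control replicate 1 or 2 and with scaling by total counts. Other exons cover 15.3% of the exonic bases of SNHG1, its small nucleolar RNAs included, and 14.4% of those of TUG1. NEAT1, the fifth to rise and chosen after its values were seen, was at 303, 393 and 232 CPM in PM2.5 replicates 1 to 3, against 134, 175 and 291 CPM in Control replicates 1 to 3, so its groups overlap through Control replicate 3. Without PM2.5 replicate 1, PM2.5 replicate 2, Control replicate 1 or Control replicate 2 the list held 3 called genes, and without Control replicate 3 it held 8, 7 higher and 1 lower.

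**Figure D5:**
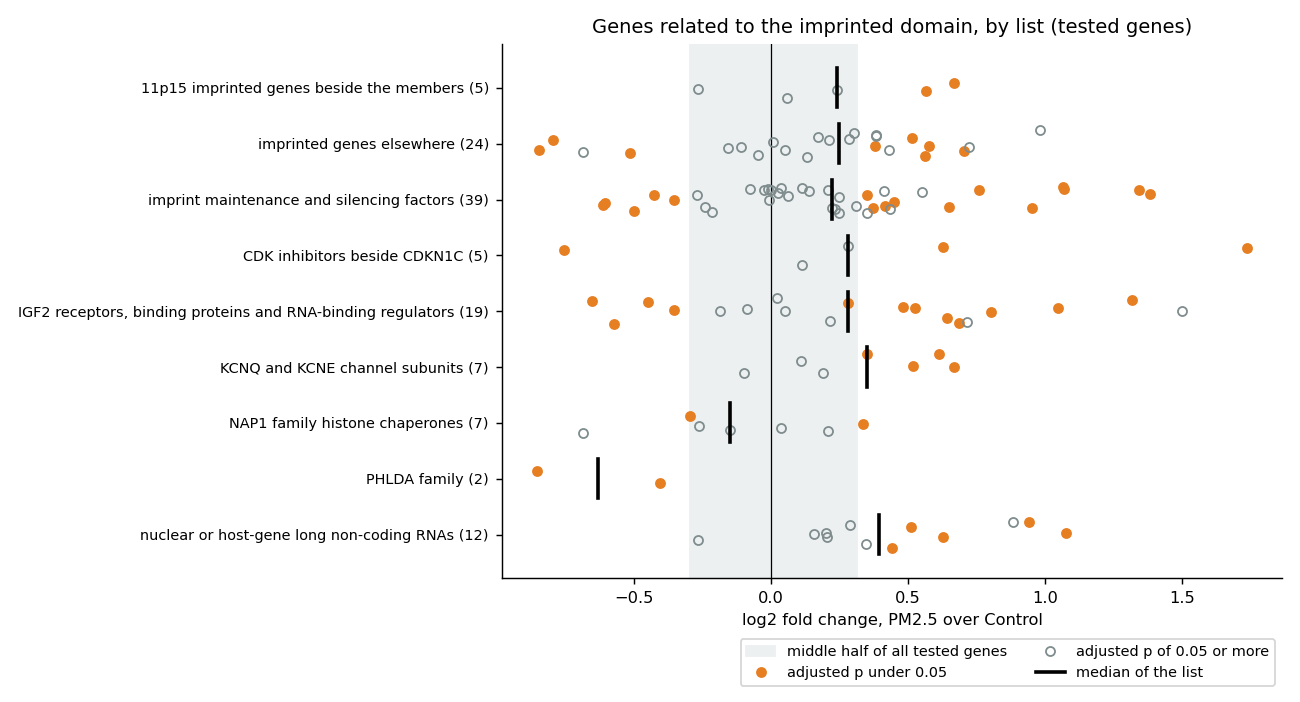
Log2 fold change (PM2.5 over Control) of each tested gene in 9 lists related to the imprinted domain, with the number tested in brackets; filled points have an adjusted p under 0.05, black lines are list medians and the grey band is the interquartile range of all tested genes. Medians run from -0.63 for the PHLDA family, which holds 2 genes, to 0.39 for the nuclear or host-gene long non-coding RNAs.

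The genes whose log2 CPM followed that of KCNQ1OT1 most closely over the 6 libraries were B3GALT5 and ABL2 (Pearson r of 0.997 each), CRY1 and TBC1D4 (0.996 each) and EPB41L2 (0.995), among genes of at least 1 CPM on average. These values carry the difference between the groups. With the group means taken off they were TBC1D4 (0.996), CBL (0.995), MAML2, ZNF506 and ZNF202 (0.994 each), so TBC1D4 stood in both sets. They are the highest of many genes over 6 libraries that share PM2.5 replicate 2 as the library farthest from its group, and are given as a description.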

How the data were processed

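Raw counts for each gene in the 6 libraries stand in a single table deposited by the authors, per the file headers, beside symbol, coordinates, biotype and a length column in bases (an other value, used here for RPKM). Per the submitters' processing notes the genome is GRCh38, and per the labels' protocols the kit was NEBNext Ultra RNA. The sources used here name no aligner, counting tool or strand setting. The 58735 identifiers, with start, end and summed exon length, matched GENCODE release 29, which gave exon overlaps.

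Columns were assigned by library title. Genes passing edgeR's filterByExpr (edgeR 4.0.16, R 4.3.3; minimum count 10, total 15) were scaled by TMM and tested with a two-sided quasi-likelihood fit on group alone. P-values were adjusted by Benjamini-Hochberg over the 14975 genes that passed, and called means adjusted p under 0.05. Fold changes are PM2.5 over Control, and each SE is the log2 value over the square root of F. The fit was also run on simulated counts with known changes in 200 genes. Their variance was set by mean level alone and no simulated library stood apart. They therefore do not show how the fit deals with a library such as Control replicate 3. CPM and RPKM use TMM factors and the deposited lengths. Within groups, libraries differed by more than counting noise (chi-square per degree of freedom 5.58 to 33.1). Alternatives were median-ratio scaling, total counts, other filters, DESeq2 1.42.0, limma-voom (limma 3.58.1), a replicate block and leaving out each library.

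The 7 genes and the lists were chosen with earlier results of these data known. From each list and the window around KCNQ1OT1, up to 4 called genes per direction with the smallest p are named, with HMOX1 and CYP1A1 and the 5 genes most like KCNQ1OT1 by each measure. The text marks other genes as chosen after their values were seen; SLC22A18AS, IGF2-AS and INS-IGF2 are given for their overlap.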

Additional observations from a re-analysis of the deposited data

How the results depend on the processing

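The log2 fold changes of KCNQ1OT1, SLC22A18, PHLDA2 and NAP1L4 kept their direction under all 13 alternatives, from 1.59 to 2.02 for KCNQ1OT1, -0.98 to -0.76 for SLC22A18, 0.12 to 0.28 for PHLDA2 and 0.31 to 0.36 for NAP1L4. The log2 fold change of CDKN1C ran from -0.16 without Control replicate 3 to 0.33, with -0.036 without PM2.5 replicate 3. Over all genes 3245 to 5280 were called when each library was left out, beside 4775 with all 6. In the same fits the called genes numbered 4 to 12 in the window around KCNQ1OT1 and 1 to 3 among other imprinted genes of 11p15. They numbered 6 to 13 among imprinted genes elsewhere, 3 to 8 among long non-coding RNAs and 14 to 27 among relatives and partners. With total counts as the only scaling 3 long non-coding RNAs were called. With the replicate number as a block 3777 genes were called in all, with 1 of the other imprinted genes of 11p15 and 3 long non-coding RNAs. CARS-AS1, ZNF215, HMGA2, KCNQ5, NASP and TUG1 were not called in that fit. The samples share only a number: deviations of same-numbered libraries from their group means correlated at -0.00158, -0.0508 and -0.122, so no pairing was read from the numbers. Of the main counts of called genes, 13 moved by over 1.5 times and 91 did not. Of the counts for sublists, 12 moved and 146 did not. Of the log2 fold changes of single genes, 2 were reversed, 48 were weaker and 625 were the same. The cause was not tested. KCNQ1 and IGF2 are limited by depth and were not compared.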
